A study of Mus musculus with 8 samples.

Results

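Radial spokes and the central pair form the control system at the core of a motile axoneme, and 10 mouse genes that encode their parts were followed through adult testis. The 10 genes were taken by name and matched to the Ensembl identifiers of a count table with 56748 rows, and all 10 were found. RNA was sequenced from 8 libraries, 4 labelled as testis of Ak9-/- mice (Ak9 knockout) and 4 as testis of wild-type (WT) mice. The labels used here name no strain and no age beyond adult, do not say which part of Ak9 was targeted, and do not say whether each library came from its own animal. Each p-value is thus read against the spread among these 8 libraries, part of which may be technical. AK9 is an adenylate kinase, an enzyme class that interconverts adenine nucleotides, and the series asks how its loss affects male fertility and sperm motility.

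In a sperm tail, a ring of outer microtubule doublets surrounds a central pair of single microtubules. Radial spokes reach inward from each doublet, and their heads touch the projections of the central apparatus, so that mechanical signals from the centre can regulate the dynein motors on the doublets. In the testis most of the genes are transcribed in germ cells, mostly from meiosis onward, and mutations in several of them cause immotile cilia or sperm in mammals. Of the 10 genes, 4 encode proteins of the radial spoke head and 6 encode proteins of the central apparatus.

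Total counts ran from 18062780 to 24415587 per library. Levels below are CPM (a gene's share of the tested genes' counts, expressed on the usual CPM scale and adjusted by TMM, a factor that aligns the bulk of genes between libraries). The targeted transcript was detected in every library. Ak9 stood at 69.3, 116, 101 and 40.6 CPM across labelled knockouts 1 to 4, and the 4 wild types spanned 107 to 122 CPM. Its log2 fold change of -0.47 (SE 0.25) had an edgeR adjusted p of 1.00, and the level of labelled knockout 2 was inside the wild-type span. Labelled knockouts 1, 3 and 4 were each below every wild type. The labels do not give the targeted part of Ak9, so these levels do not test the genotypes. Groups are therefore named by their labels throughout. Labelled knockout 3 stood apart from the other libraries in spermatid markers, with values given beside the results they touch.

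Radial spoke heads in mouse exist in a ciliary and a sperm version, made with RSPH4A and RSPH6A respectively. The coding sequences of Rsph6a and Rsph4a (GENCODE M21 transcripts) were 66.3% identical over 2026 aligned bases, and their longest shared run was 18 bases. The most similar gap-free 90 bases of this pair are printed because these relatives stand far apart in level, and the capitals mark the 19 bases that differ.
Rsph6a, coding bases 1837 to 1926: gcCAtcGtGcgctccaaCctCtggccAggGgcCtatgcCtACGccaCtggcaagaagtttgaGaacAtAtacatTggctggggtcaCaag
Rsph4a, coding bases 1867 to 1956: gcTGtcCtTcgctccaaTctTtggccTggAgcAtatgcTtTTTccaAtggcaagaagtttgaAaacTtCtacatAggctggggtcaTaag
Reads of these 2 genes therefore differ even in the best-matched stretch. Spag6l and its relative Spag6 were closer, with 88.3% identity over 1521 aligned coding bases and a longest shared run of 65 bases. In their most similar 90 bases, shown because reads from there could be assigned to either gene, 1 base differs and is in capitals.
Spag6l, coding bases 907 to 996: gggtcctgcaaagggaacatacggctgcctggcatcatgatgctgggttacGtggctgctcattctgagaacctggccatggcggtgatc
Spag6, coding bases 907 to 996: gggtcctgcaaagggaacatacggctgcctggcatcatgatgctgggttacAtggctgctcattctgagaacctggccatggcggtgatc
The counts of Spag6l and Spag6 are accordingly less certain one by one than those of the other members.

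Members are compared with each other per length, as CPM per kilobase of merged exon. Rsph1, a spoke head protein with MORN repeats, had the highest level per length, at 556 ± 49.5 CPM per kb in wild types (SD, n = 4) and 595 ± 55.1 in libraries labelled knockout. Rsph6a followed at 89.99 ± 6.33 and 91.8 ± 25.8, then Spag6l at 74.6 ± 4.44 and 80.7 ± 12.9, Rsph9 at 60.7 ± 3.96 and 65.1 ± 14.1, and Spag17 at 45.1 ± 0.801 and 45.4 ± 6.63 CPM per kb. Below these came Spag16 (18.6 ± 0.956 and 20.4 ± 4.46), Spef1 (15.2 ± 2.34 and 17.1 ± 2.00), Hydin (11.8 ± 0.879 and 11.6 ± 2.12) and Spef2 (5.62 ± 0.417 and 6.17 ± 1.01 CPM per kb). Rsph4a came last at 0.113 ± 0.0339 and 0.0966 ± 0.0487 CPM per kb. The order was the same in both groups. Among wild types the only neighbours whose library ranges overlapped were Spag16 and Spef1. In libraries labelled knockout this pair and the run from Rsph6a through Spag6l and Rsph9 to Spag17 overlapped from each gene to the next.

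The order rests in part on the gene model. Exon lengths came from GENCODE M21 on GRCm38, while the counts were made on GRCm39. With the longest transcript as the length, an alternative chosen after the data were seen, Spag6l (141 ± 8.37 CPM per kb in wild types) and Rsph9 (101 ± 6.57) stood above Rsph6a (95.4 ± 6.71), and Rsph1 stayed first and Rsph4a last.

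**Figure D1:**
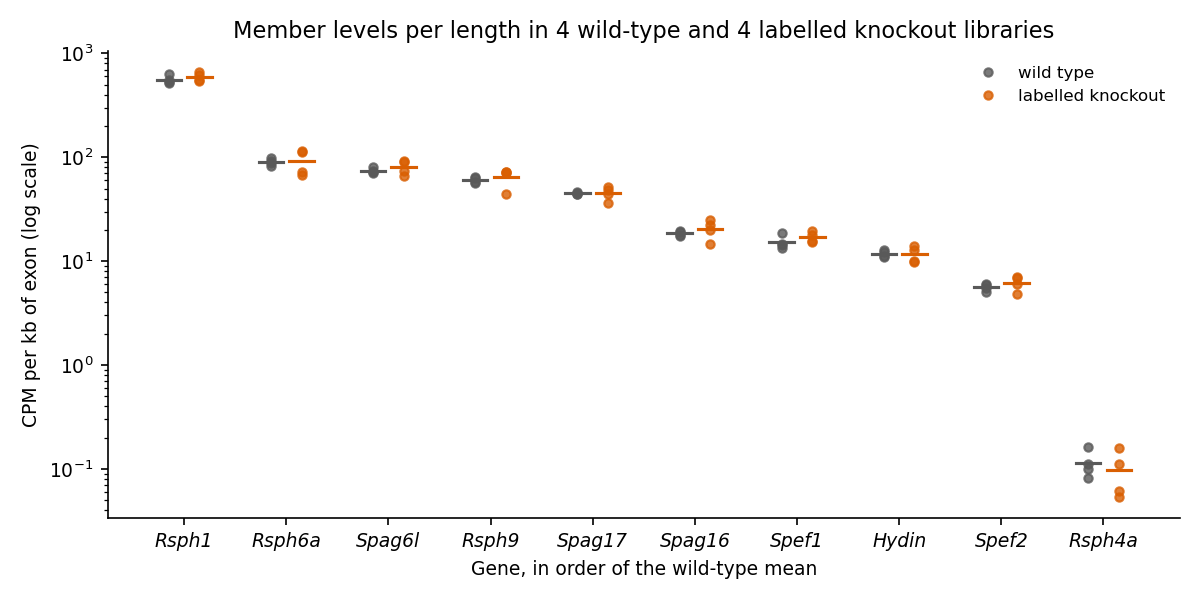
Level of each of the 10 genes in CPM per kb of merged exon on a log axis, with 1 point per library, wild types in grey and labelled knockouts in orange, and a bar at each group mean. Rsph1 lies above 500 CPM per kb in all 8 libraries and Rsph4a below 0.2.

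Among the spoke head genes, Rsph1 was at 909, 747, 762 and 845 CPM across labelled knockouts 1 to 4. The wild types 1 to 4 were at 861, 731, 707 and 755 CPM. Labelled knockout 1 lay above all wild types and the other 3 within their range, so the groups overlapped.

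Rsph6a, the spoke head protein of the sperm tail, was at 286, 169, 178 and 283 CPM across labelled knockouts 1 to 4. The wild types stood at 243, 206, 219.5 and 229.8 CPM. Labelled knockouts 1 and 4 lay above every wild type, and labelled knockouts 2 and 3 below every one. The 2 group means were close, at 229 ± 64.5 and 225 ± 15.8 CPM (SD, n = 4 per group), and the spread among libraries labelled knockout was wider.

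Rsph9, a small subunit of the same head, was at 117, 114, 70.4 and 116 CPM across labelled knockouts 1 to 4. The wild types were at 103, 90.3, 93.3 and 102 CPM. Labelled knockouts 1, 2 and 4 were above every wild type by a small margin, and labelled knockout 3 was below every wild type, so the groups overlapped through 1 library.

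Rsph4a, the counterpart of Rsph6a in motile cilia, was barely detected. It had 5, 12, 4 and 7 counts across labelled knockouts 1 to 4, next to 11, 9, 9 and 6 in the wild types. The summed counts gave 0.349 CPM in libraries labelled knockout (95% Poisson interval 0.232 to 0.504, counting error only) and 0.408 CPM in wild types (0.284 to 0.568). Every library was above the level that a count of 0 allows, which is 0.121 to 0.175 CPM at 3 counts. The gene fell below the count filter of the main fit. DESeq2, which used no such filter here, gave a log2 fold change of -0.23 (SE 0.58, adjusted p = 1.00), and edgeR without the filter gave -0.24 (SE 0.50, 95% interval -1.26 to 0.78, adjusted p = 0.997). Per length, Rsph6a exceeded Rsph4a 605-fold to 1120.2-fold in wild types and 426-fold to 1859-fold in libraries labelled knockout, on 4 to 12 counts of Rsph4a per library.

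Multiciliated epithelium, where Rsph4a is used, lines the efferent ducts beside the testis. Of 8 markers of that epithelium, 4 passed the count filter. Mcidas and Gmnc, which start the multiciliated programme, were at no more than 0.404 and 0.700 CPM in any library, and Cdhr3 and Tmem212 each at no more than 0.627. Sec14l3 was at 1.30 to 2.33 CPM. Ccno was at 4.24, 3.96, 3.80 and 3.27 CPM across labelled knockouts 1 to 4, below each wild type (5.48 to 6.09). The groups did not overlap for 2.30% of all genes. Of the 4 tested markers, 3 had log2 fold changes above 0 and 1 below, with a median of 0.19, and edgeR called 0. Foxj1 and Ccdc113, which germ cells also express, made up most of the summed level of this list, which was 268 to 279 CPM in wild types and 202 to 378 in libraries labelled knockout.

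Of the central apparatus genes, Hydin encodes a very large protein of the central pair projections, whose loss causes hydrocephalus and stiff cilia. Labelled knockouts 1 to 4 had Hydin at 229, 176, 179 and 254 CPM, and the wild types had it at 232, 199.9, 222 and 200.4 CPM. As for Rsph6a, labelled knockouts 2 and 3 lay below all wild types. Labelled knockout 4 lay above them and labelled knockout 1 within their range.

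Spag17, a scaffold of a central pair projection, was at 408, 379, 311 and 444 CPM across labelled knockouts 1 to 4. In the wild types Spag17 was at 389.6, 380.2, 388 and 375 CPM, with the smallest SD of log2 CPM among the 9 tested members (0.03). Labelled knockouts 1 and 4 were above and labelled knockout 3 below this narrow range.

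Spag6l, an armadillo-repeat protein needed for flagellar motility, was at 421, 337, 300.3 and 412 CPM across labelled knockouts 1 to 4, next to wild types at 369, 331, 338 and 322 CPM. Spag16, a WD-repeat protein that binds SPAG6, was at 152, 134, 98.1 and 168 CPM against 132, 121, 130.0 and 119 CPM. In both genes labelled knockout 3 was the lowest of the 8 libraries and labelled knockouts 1 and 4 were the highest pair.

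Spef1, a microtubule-binding protein that bridges the central pair, was at 53.6, 41.8, 43.0 and 49.0 CPM across labelled knockouts 1 to 4, next to wild types at 51.1, 36.5, 39.1 and 40.2 CPM. Spef2, a projection protein that also takes part in building the tail, was at 69.8, 59.3, 47.9 and 67.8 CPM against 50.6, 59.0, 59.2 and 54.3 CPM. Spef1 had no labelled knockout below the wild-type range, and wild type 1 was the highest of its group for Spef1 and the lowest of its group for Spef2. In Spef2, labelled knockouts 1 and 4 were well above all wild types, labelled knockout 2 only just, and labelled knockout 3 below them.

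**Figure D2:**
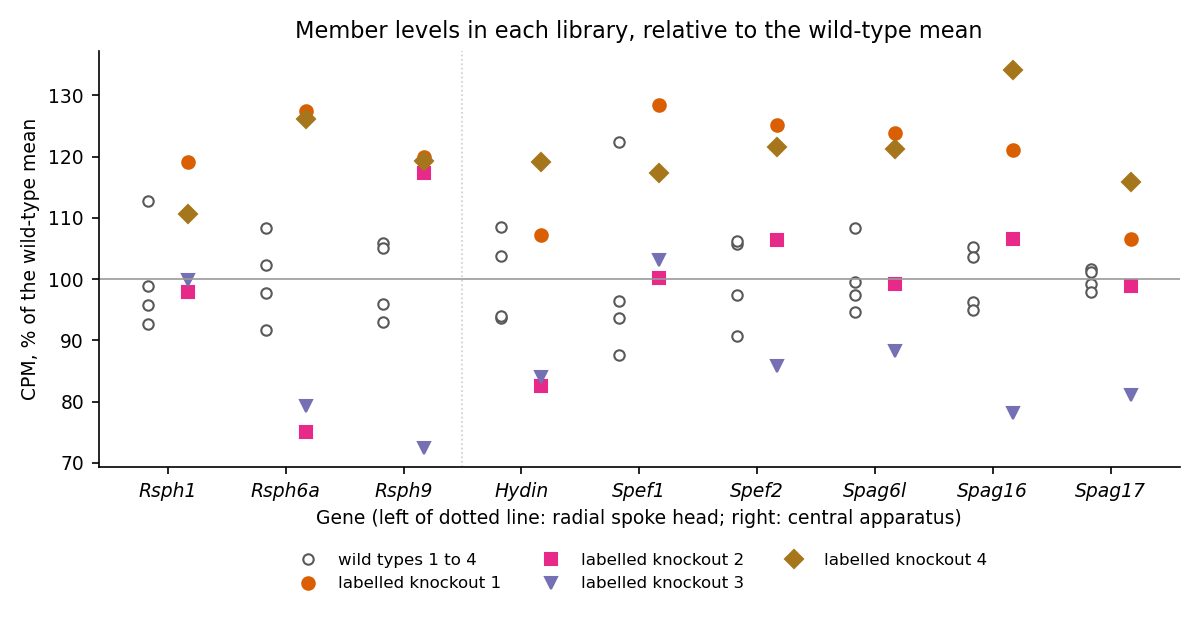
CPM of the 9 tested members as a percentage of the wild-type mean of the same gene, with open circles for the 4 wild types and 1 filled symbol for each labelled knockout. Labelled knockout 3 lies at 72.4% for Rsph9 and at 99.8% for Rsph1, and labelled knockout 4 reaches 134% for Spag16.

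The series compares testis labelled Ak9 knockout with testis labelled wild type. Of the 9 members tested, 0 were called in either direction (edgeR quasi-likelihood test, Benjamini-Hochberg adjusted over 21805 genes, adjusted p = 1.00 for each). DESeq2 and limma-voom also called 0 members. Over all genes edgeR and limma-voom each called 0.0183% and DESeq2 0.157%. At an unadjusted p under 0.05, edgeR marked 0 of 9 members and 3.04% of all genes. The groups did not overlap for 0 of 9 members and for 2.30% of all genes.

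The fitted differences were small and had intervals that bound them. The log2 fold changes (labelled knockout over wild type) were 0.10 for Rsph1 (SE 0.12), 0.03 for Rsph6a (SE 0.18) and 0.10 for Rsph9 (SE 0.15). In the central apparatus they were -0.03 for Hydin, 0.17 for Spef1, 0.13 for Spef2, 0.11 for Spag6l, 0.14 for Spag16 and 0.01 for Spag17 (SE 0.12 to 0.15). Their median over the 9 members was 0.10, against 0.01 over all genes tested, and 8 of 9 were above 0, against 52.9% of all genes. With limma-voom, the replicate block or library totals 6 of 9 were above 0. With 1 library left out, the lowest count was 6 of 9, without labelled knockout 1 or labelled knockout 4. The highest was 9 of 9, without labelled knockout 2, labelled knockout 3 or wild type 1. The 95% intervals lay within 1.5-fold in either direction for 9 of 9 members. The widest was that of Rsph6a, from 0.777-fold to 1.34-fold. Spag6l and Spag6 counted as 1 gene, an alternative chosen after the data were seen, gave a log2 fold change of 0.14 (SE 0.14). The median was 0.19 without labelled knockout 3, 0.04 without labelled knockout 1 and 0.04 without labelled knockout 4.

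**Figure D3:**
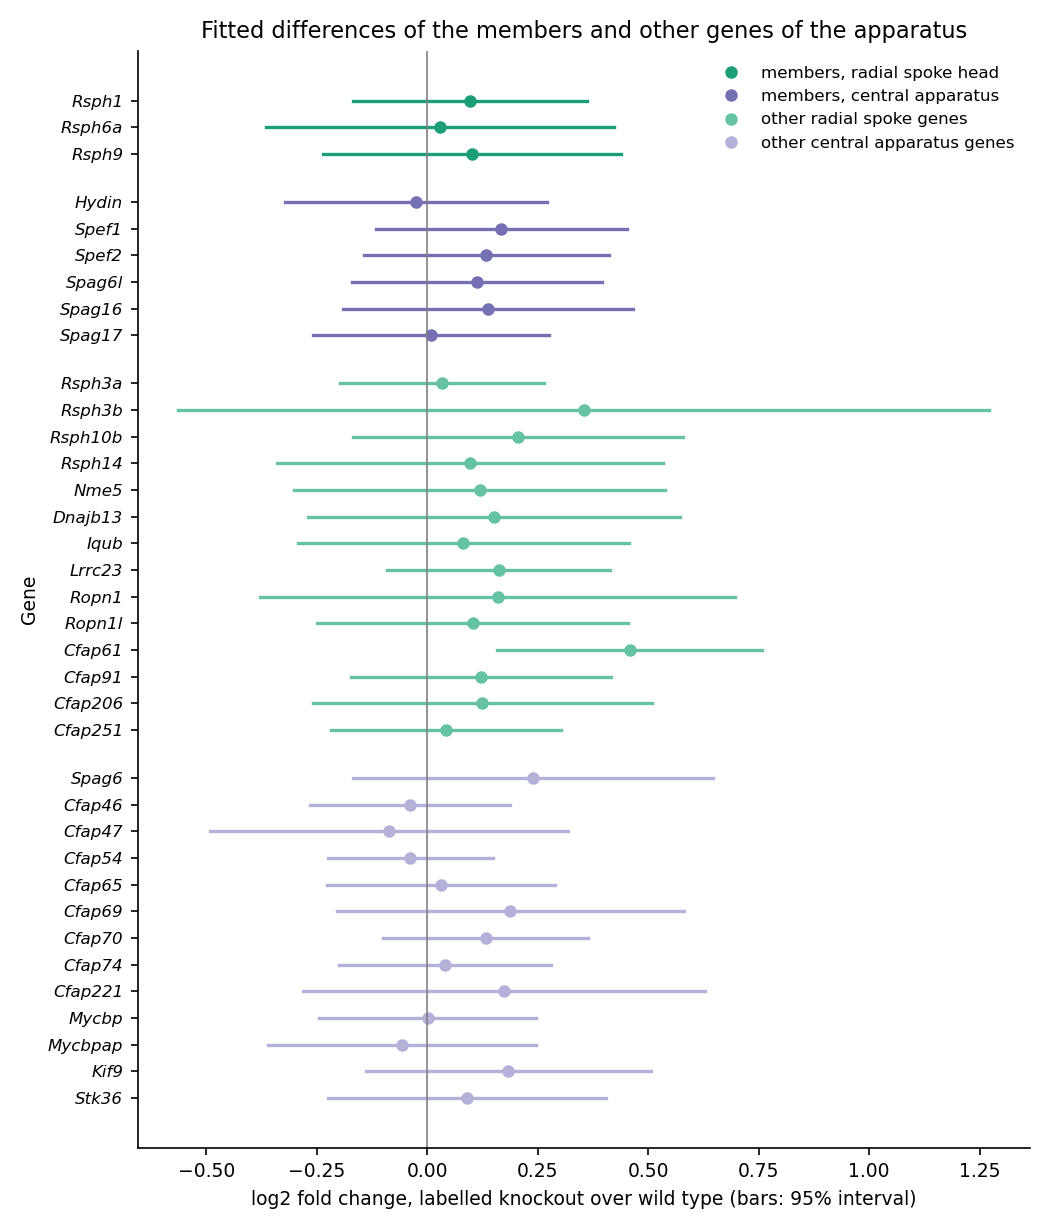
Log2 fold change (labelled knockout over wild type) with its 95% interval from edgeR for the 9 tested members and for 27 other genes of the spokes and the central apparatus. The 9 member intervals all span 0, and the interval of Cfap61 runs from 0.16 to 0.76.

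Without labelled knockout 3, a fit chosen for report after that library was seen to stand apart, 9 of 9 members had log2 fold changes above 0 and 0 were called. Rsph9, Spef2 and Spag16 had edgeR log2 fold changes of 0.24 (SE 0.07, adjusted p = 0.130), 0.22 (SE 0.09, adjusted p = 0.215) and 0.26 (SE 0.08, adjusted p = 0.154). These 3 of 9 members reached an unadjusted p under 0.05, against 19.0% of all genes in that fit, and in the higher direction 2218 of 22131 genes did. The same 3 had all remaining labelled knockouts above all wild types, against 9.42% of all genes.

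The libraries labelled knockout differed among themselves. In labelled knockout 1, 8 of 9 tested members lay above every wild type, and in labelled knockout 4, 7 of 9 did, against 32.5% and 34.0% of all genes. In both, 0 of 9 lay below every wild type, against 32.0% and 33.9% of all genes. In labelled knockout 3, 7 of 9 lay below every wild type, against 36.1% of all genes, and 0 of 9 above, against 33.5%. Labelled knockout 2 had 3 above (Rsph9, Spef2 and Spag16), against 26.3%, and 2 below (Rsph6a and Hydin), against 26.4%. The numbers depended on the scaling: by library totals without TMM, an alternative added after the data were seen, they were 5 above in labelled knockout 1, 5 above in labelled knockout 4 and 4 below in labelled knockout 3. RLE size factors gave the same counts as TMM.

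The members were not alike in this. Rsph6a and Hydin were low in labelled knockouts 2 and 3, both under TMM and, for Rsph6a, by library totals. Rsph9, Spef2, Spag6l, Spag16 and Spag17 were low in labelled knockout 3 alone under TMM. Rsph1 and Spef1 were below the wild-type range in no library, and wild type 1 had their highest wild-type level, at 113% and 122% of their wild-type means.

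Ratios between members of 1 library do not depend on scaling. Rsph9 per Rsph1, by CPM per kb, was 0.102 to 0.116 in wild types and 0.110, 0.131, 0.0791 and 0.117 in labelled knockouts 1 to 4. Labelled knockout 2 was thus above and labelled knockout 3 below all wild types for these 2 subunits of 1 structure. Rsph6a per Rsph1 was 0.155 to 0.171 in wild types and 0.173, 0.124, 0.129 and 0.184 in labelled knockouts 1 to 4. Spag16 per Hydin was 1.52 to 1.61 in wild types and 1.77, 2.02, 1.46 and 1.77 in labelled knockouts 1 to 4, outside the wild-type range in each. Spag17 per Hydin was 3.57 to 4.04 in wild types and 3.79, 4.57, 3.68 and 3.71 in labelled knockouts 1 to 4, with labelled knockout 2 alone outside the wild-type range. Spef2 per Spef1 was 0.274 to 0.447 in wild types. In labelled knockouts 1 to 4 it was 0.361, 0.393, 0.308 and 0.383, all within that range. These pairs were not set in advance, and the share of other gene pairs outside the wild-type range was not computed.

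Spermatids are the cells that build the tail. Their markers, like the members, scored above all wild types in labelled knockouts 1 and 4. Both scored below all wild types in labelled knockout 3, and labelled knockout 2 differed. Each list was given a score per library: its tested genes' log2(CPM + 0.5) was averaged and the wild-type mean subtracted. For the members the score came to 0.26, -0.03, -0.23 and 0.27 in labelled knockouts 1 to 4, with wild types between -0.06 and 0.10. Round spermatid markers (10 of 10 tested) scored 0.35, 0.21, -0.71 and 0.28, and elongating spermatid markers (12 of 12 tested) 0.36, 0.06, -0.78 and 0.47 in the same libraries. In labelled knockout 2 the round spermatid score was above all wild types (-0.14 to 0.08). Its member and elongating spermatid scores were within the wild-type range. Spermatocyte markers stayed within -0.02 to 0.07. Sertoli cell markers scored -0.17, 0.03, 0.51 and -0.45 (wild types -0.07 to 0.11). Spermatogonial markers scored -0.40, -0.04, 0.14 and -0.31 (wild types -0.10 to 0.10), and Leydig cell markers -0.32, -0.42, 0.01 and -1.06 (-0.13 to 0.10). No marker of these 6 lists was at 0 in all libraries. Peritubular and stromal markers scored 0.00, 0.39, 0.35 and -0.21 (wild types -0.13 to 0.16). Macrophage markers scored -0.30, 0.00, -0.04 and -0.30 (wild types -0.08 to 0.12), and endothelial markers -0.27, -0.07, -0.17 and -0.08 (-0.16 to 0.24). Fewer cells of a type and less RNA per cell cannot be told apart in bulk tissue, and the part of cell make-up in the members' levels was not tested.

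By summed levels, too, labelled knockout 3 was the lowest for both spermatid lists and for the members. Round spermatid markers summed to 1363 to 1562 CPM in wild types and to 932 to 1906 in libraries labelled knockout. Elongating spermatid markers summed to 17706 to 21776 CPM and 11628 to 26925 CPM. The 10 members summed to 2155 to 2431 CPM in wild types and to 1991 to 2646 in libraries labelled knockout, a narrower range for its level than that of either spermatid list. The 8 markers of epididymis, of which 1 passed the count filter, summed to 5.30 to 7.80 CPM in wild types and 4.25 to 216 in libraries labelled knockout. Crisp1 stood at 185 CPM in labelled knockout 3 and 24.4 in labelled knockout 4, against at most 0.534 in wild types, and Adam7 at 26.2 and 4.198 CPM, against at most 0.180. In labelled knockout 3, Defb2 and Lcn5 were at 0.691 and 0.444 CPM, each above every wild type. Gpx5 and Cst11 were at 0 in labelled knockouts 3 and 4, and Rnase10 was at 3.11 to 7.35 CPM in labelled knockouts and 4.89 to 7.06 in wild types. The part of such RNA in the member values was not tested.

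**Figure D4:**
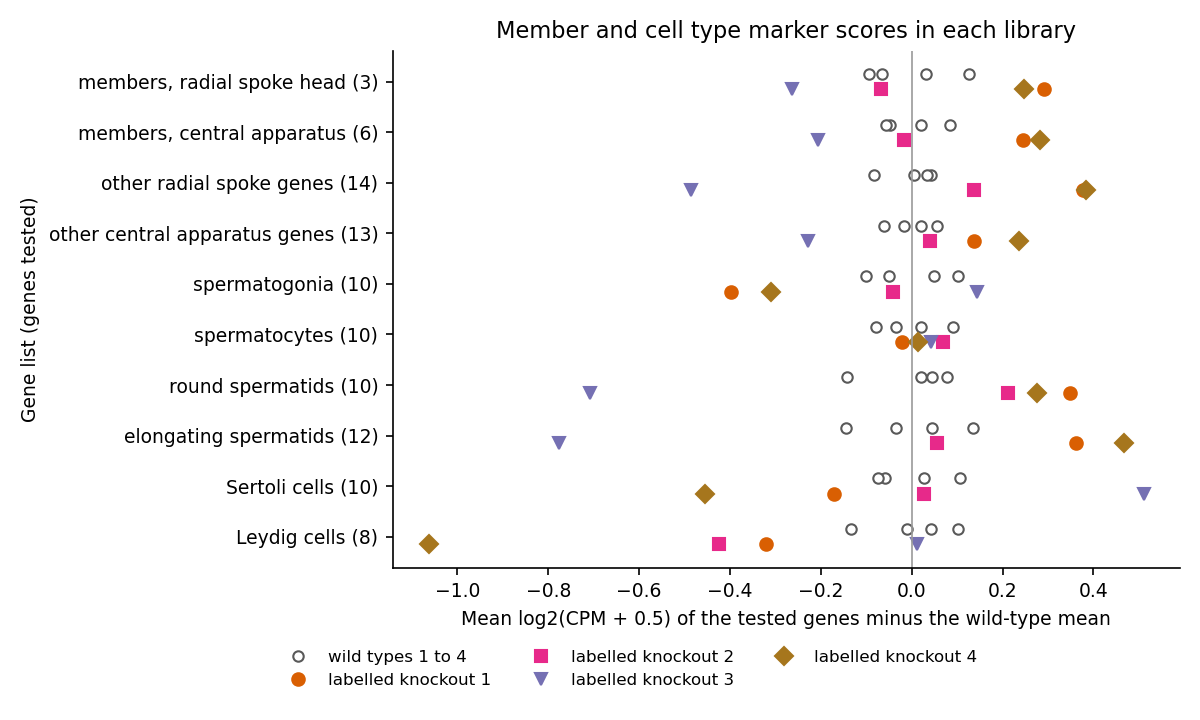
Score of each gene list in each library, as its average log2(CPM + 0.5) minus the wild-type mean, with open circles for wild types and filled symbols for labelled knockouts. Both member groups and both spermatid lists put labelled knockout 3 lowest, at -0.26, -0.21, -0.71 and -0.78, while spermatocyte markers stay near 0.

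The spread of log2 CPM was wider among labelled knockouts than among wild types in 8 of 9 tested members, against 84.9% of all genes. Rsph6a had the largest, with an SD of log2 CPM of 0.41 against 0.10 in wild types. Genes of like level had median SDs of 0.25 and 0.08. Rsph1 was at 0.13 against 0.32 for genes of like level in libraries labelled knockout, and Spag17 was at 0.03 against 0.08 in wild types. Spef1 was the exception, with SDs of 0.17 in libraries labelled knockout against 0.21 in wild types. Among labelled knockouts, 4 of 9 members had an SD below the median of genes of like level. Among wild types 2 of 9 did, Spag16 and Spag17.

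A further 27 genes of the spokes and the central apparatus were examined. Of 14 further radial spoke genes, 14 were tested, 0 were called, and 14 had log2 fold changes above 0 with a median of 0.12. Cfap61, a protein of the calmodulin- and spoke-associated complex, had the smallest p of the list, at 95.5, 82.8, 58.1 and 80.6 CPM across labelled knockouts 1 to 4 against 55.1 to 59.2 in wild types. Its log2 fold change was 0.46 (SE 0.14, edgeR adjusted p = 1.00), and without labelled knockout 3 it was 0.57 (SE 0.08, edgeR adjusted p = 0.0349), the 1 call in this list under any alternative. That call stands against 0.158% of all genes called in the same fit, and the adjusted p was 0.599 to 1.00 in the other alternatives. Lrrc23, a spoke head protein, had the next smallest p, with 113 ± 14.4 against 101 ± 8.15 CPM. The 14 genes scored 0.38, 0.14, -0.49 and 0.38 in labelled knockouts 1 to 4, so labelled knockout 3 was further down than for the members.

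Rsph3b varied most in this list, at 94.7, 44.8, 15.8 and 98.4 CPM across labelled knockouts 1 to 4, with wild types from 47.3 to 51.3 (chosen after its values were seen). It is 99.4% identical to Rsph3a over 1823 bases, so the counting could split their reads, and Rsph3a was at 125 to 163 CPM in the same libraries. Of 13 further central apparatus genes, 13 were tested and 0 called, with 9 above 0 and a median of 0.04. Spag6 and Cfap70 had the smallest p values. Spag6 was at 166, 123, 81.2 and 147 CPM across labelled knockouts 1 to 4, with wild types from 98.5 to 118 and a log2 fold change of 0.24 (SE 0.18), and Cfap70 at 245 ± 21.0 against 224 ± 16.6 CPM. Spag6l stood above Spag6 in all 8 libraries, by 2.13-fold to 2.53-fold per length in wild types and 1.88-fold to 2.75-fold in libraries labelled knockout.

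Genes with the most similar profile over the 8 libraries were sought among 14469 named genes of at least 1 CPM, by the root mean square distance of log2(CPM + 0.5) minus the wild-type mean. Nearest to the 3 tested spoke head members were Tubb4b, a beta-tubulin (distance 0.026), Nudt18, a nudix hydrolase (0.027), and Prmt7, an arginine methyltransferase (0.032). For the 6 central apparatus members they were Ttc25, which docks outer dynein arms (0.026), Vps4a, an ATPase of membrane scission (0.031), and Tmcc1 (0.035). Tubb4b deviated by 0.29, -0.10, -0.22 and 0.29 in labelled knockouts 1 to 4, where the spoke head mean was at 0.29, -0.07, -0.26 and 0.25.

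Promoters (250 bases before to 50 after the start, RefSeq, GRCm38.p6) were matched for 8 of the 10 genes and searched for letters that factors of ciliary and spermatid genes bind. GTTGCC, the half-site letters of RFX factors that bind ciliary genes, was found on either strand in 4 of 8 member promoters and in 12.5% of 32851 promoters. TGACGTCA, the letters bound by CREB and CREM factors, was found in 1 of 8 and in 1.79% of all. TGACG, which lies within TGACGTCA, was found in 1 of 8 and in 20.8%. A fixed longer string that begins with GTTGCC was found in 0 of 8 and in 0.563%. Longer RFX sites with variable letters or spacing were not searched for, so this result does not exclude them. The sites that lie before the start in Spag16, Hydin and Spag6l are printed to show these letters, in capitals, 5′ to 3′ on the gene's strand.
Spag16, chr1:69826851-69826880, plus strand: ggtaactaGGCAACgcGTTGCCgtagtaac
Hydin, chr8:110266952-110266981, plus strand: tgcggttgctgtGGCAACagatggtaacaa
Spag6l, chr16:16829354-16829383, minus strand: cactctggccgTGACGTCAcgacctttgct
GGCAAC is GTTGCC read on the other strand, and Spag16 holds both orientations 2 bases apart. The matches describe letters only.

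The 10 genes lie on 9 chromosomes (GENCODE M21, GRCm38): Spag16 on 1, Spef1 on 2, Spag17 on 3, Rsph6a on 7, Hydin on 8, Rsph4a on 10, Spef2 on 15, Spag6l on 16, and Rsph1 and Rsph9 on 17. In the count table they are Rsph1 (ENSMUSG00000024033), Rsph4a (ENSMUSG00000039552), Rsph6a (ENSMUSG00000040866), Rsph9 (ENSMUSG00000023966), Hydin (ENSMUSG00000059854), Spef1 (ENSMUSG00000027329), Spef2 (ENSMUSG00000072663), Spag6l (ENSMUSG00000022783), Spag16 (ENSMUSG00000053153) and Spag17 (ENSMUSG00000027867). Exons of Spag17 overlap those of Wdr3 on the other strand over 820 bases, 9.66% of its exon length, and those of the antisense Spag17os over 516 bases. Wdr3 was at 20.0 to 23.6 CPM in wild types, far below Spag17. Spef1 overlaps Gm14232 over 256 bases and Cdc25b over 92 bases on the other strand and Cenpb over 20 bases on its own, and Hydin overlaps Gm26832 over 237 bases on the other strand. Outside the 10, Cfap61 overlaps Crnkl1 over 57 bases and Spag6 overlaps Gm20539 over 283 bases, both on the other strand. Cdc25b, Gm14232 and Gm26832 were at no more than 3.32 CPM in any library and Cenpb at no more than 42.9. The sources used here do not give the strand setting of the counting, so reads in these overlaps cannot be told apart.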

How the data were processed

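The authors deposited raw counts per Ensembl gene, whole numbers without normalization, for 8 libraries. The submitters' processing notes list Trimmomatic, STAR, featureCounts and DESeq2, and the builds GRCm39 and mm39. The sources used here do not give versions, annotation release, strand setting or the handling of multi-mapping reads. Per the labels' protocols, TRIzol RNA and a DNase step preceded TruSeq library construction.

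Genes were filtered with filterByExpr (minimum count 10, minimum total 15), leaving 21805, scaled by TMM and compared in edgeR 4.0.16 under R 4.3.3 with the label as the only term. The threshold was an adjusted p of 0.05. Standard errors were obtained as |log2 fold change| over the root of F, and 95% intervals use the fit's degrees of freedom. Symbols and lengths came from GENCODE M21, 3 list members were matched through RefSeq synonyms, and 4675 identifiers had no symbol. Copies were sought with blastn 2.17.0 and coding pairs aligned with Biopython 1.88. Only the edgeR fit was tested on simulated counts, with planted changes larger than the differences of the members.

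Named genes are the 10 members, Ak9, the 2 smallest p of each further list with no call, the 3 nearest profiles per member group, and genes that overlap or copy these. Single markers of the multiciliated and epididymis lists are also named, under no rule set in advance. Any others are said to be chosen after their values were seen. The members and lists were chosen with earlier results of these data known. Alternatives were RLE, the filter removed or set at a mean of 1 CPM, limma-voom (limma 3.58.1), DESeq2 1.42.0, the replicate block and each library left out. A chi-square over the tested genes, for every pair of the 8 libraries, was at least 4.59 per gene, so no library was a copy of another. No column was left without a sample (0).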

Additional observations from a re-analysis of the deposited data

Results flagged for a closer look

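Rsph9 in labelled knockout 3, at 70.4 CPM, stood apart from the other 3 labelled knockouts, which lay at 114 to 117 CPM. The gap divided by the group's range was 0.943, above Dixon's 95% critical value for 4 samples. It was the 1 such value among 42 groups of 4 examined, and chance alone marks about 1 in 20 groups. The 42 groups left out the epididymis markers and most of the further spoke genes, so Rsph9 is not shown to be unique. Outside them, labelled knockout 3 also lay far from the other labelled knockouts in Crisp1, at 185 CPM against 0 to 24.4. In Dnajb13, a further spoke gene, it was at 136 CPM against 253 to 274 (both chosen after their values were seen).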

How the results depend on the processing

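The number of members called was 0 under each of the 14 alternatives and by library totals, and the further central apparatus genes likewise gave 0. The medians of the members and of both member groups stayed above 0 and moved by less than 1 SD of the list score (0.04 to 0.19 for all members). The number of genes called over the whole table was 4, and 26 without a low-count filter, 48 with DESeq2 and 3 to 35 with 1 library left out. The further radial spoke genes gave 0 or, without labelled knockout 3, 1 call. The direction of values near 0 changed. Hydin ran from -0.13 to 0.035 with 1 library left out, Rsph6a from -0.10 to 0.14 and Spag17 from -0.068 to 0.085. Rsph6a was -0.0126 with limma-voom, -0.0125 with the replicate block and -0.0300 by library totals. Spag17 was -0.0047 without a filter, -0.0014 at a mean of at least 1 CPM, -0.0027 with limma-voom, -0.0035 with the replicate block and -0.0428 by library totals. The cause was not tested. Library totals moved the median of all genes to -0.02 and that of the members to 0.05. Same-numbered libraries correlated at -0.05 to 0.13 in their deviations, and 2 of 4 labelled knockouts correlated best with their own number. With so few libraries, these correlations cannot tell whether the numbers pair the libraries. The replicate block gave 4 calls over all genes and 0 members. Rsph4a, with 4 to 12 counts per library, entered only the fits without the low-count filter (log2 fold change -0.24) and with DESeq2 (-0.23), and the depth leaves a wide interval (-1.26 to 0.78).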
